A study of Homo sapiens with 96 samples.

Results

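LAPC4, an established human prostate cancer cell line, was given the synthetic androgen R1881 together with Apigenin, a flavone of parsley and other plants, and the transcripts of these cultures were set against those of cultures given R1881 alone. The members were chosen by their labels: 3 arrays of Apigenin at 20 uM with R1881 at 0.33 nM, against 6 arrays of R1881 at 0.33 nM, of 96 arrays in the series. A further 6 arrays of 0.05% DMSO, without R1881, serve as the baseline without the androgen. All cultures were exposed for 6 h, in a medium with fetal bovine serum, so every group also had the hormones of the serum. The remaining arrays hold 27 other chemicals with R1881, 3 arrays each, and among them Procymidone, Fenitrothion and Spironolactone, each at 20 uM, are set beside Apigenin further on. The series' design text states that the work was spread over 3 separate days, and that hybridization followed a random order and was blind to treatment. All of it is 1 cell line, and the labels do not say what sets the control arrays 1b to 3b apart from 1 to 3. The p-values of the main fit measure the spread within groups over all 96 arrays, which may be partly technical. Where a gene spread more under Apigenin than in most groups, such a p can be too small.

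R1881 binds the androgen receptor, which then enters the nucleus and switches on genes such as the kallikreins, FKBP5 and SGK1 in prostate cells. A compound that blocks the receptor leaves these genes near their level without the androgen. Cells answer other challenges with other sets of genes: metallothioneins when zinc or other metals rise inside the cell, CYP1A1 when the aryl hydrocarbon receptor is bound, chaperones when proteins misfold.

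Values are the deposited log2 levels of 18571 genes, each read by its brightest probe, and the median of every array was 6.721, so that a level near 6.7 is that of a dim probe. Apigenin 2 stood apart from the arrays it is grouped or compared with. Its median correlation with all other arrays was 0.878, against 0.942 to 0.972 for the other 2 Apigenin arrays and the 6 R1881 arrays. Results are therefore given with and without Apigenin 2. It was not the lowest of the series. Below it lay Trenbolone 2 (0.336), Spironolactone 2 (0.469), Testosterone propionate 2 (0.743), MethylTestosterone 2 (0.818) and Flutamide 3 (0.843). These arrays stayed in the main fit, and so in its spread and in the mean of the other chemicals. Leaving all of them out of that fit was not tested. Luminal epithelial genes, which define the prostate lineage of the line, had a mean level over 12 measured markers of 8.75, 8.13 and 8.65 in Apigenin 1, 2 and 3, against 8.42 to 8.78 in the R1881 arrays. EPCAM (11.27 ± 0.93 under Apigenin and 11.63 ± 0.38 with R1881), CDH1 and HOXB13 were bright, while KLK3, the gene of prostate-specific antigen, was dim in both groups (6.81 ± 0.17 and 6.83 ± 0.17; SD, n = 3 and 6). Of the 12 luminal markers, 6 averaged over 8 with R1881 and 3 under 7, the latter being KLK3, ACP3 (6.85) and MSMB (6.59). The mean of 7 leukocyte markers was 6.91, 7.32 and 6.94 in Apigenin 1, 2 and 3, against 6.87 to 6.96 with R1881, and that of 5 endothelial markers 6.718, 7.121 and 6.588 against 6.633 to 6.998. The mean of 7 neuroendocrine markers was 7.19, 7.42 and 7.02, against 6.87 to 7.15 with R1881. Of these, 3 had a positive and 4 a negative change, with a median of -0.007 and the largest in ENO2 (9.64 against 8.53), also a glycolysis gene. The mean of 7 basal markers was 7.23, 6.99 and 6.90, against 6.92 to 7.26. That of 8 stromal markers was 7.18, 7.24 and 7.22, against 7.15 to 7.32, with ACTA2 bright (9.95 with R1881). Apigenin 2 thus lay below the R1881 range for the luminal mean and above it for the leukocyte, endothelial and neuroendocrine means. Apigenin 1 lay above it for the neuroendocrine mean and Apigenin 3 below it for the endothelial and basal means. The part of this in the results was not tested. No marker gene passed the test between Apigenin with R1881 and R1881 alone.

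Apigenin with R1881 changed 262 genes (1.41%) against R1881 at adjusted p under 0.05 (limma, Benjamini-Hochberg over all genes): 87 were higher (0.468% of the genes tested) and 175 lower (0.942%). Metallothionein genes led the rises and androgen-induced genes the falls. With the replicate number as a block, 111 genes were higher (0.598%) and 278 lower (1.5%), and without Apigenin 2, 49 were higher (0.264%) and 30 lower (0.162%). With the block on the Apigenin and R1881 arrays alone, 519 were higher (2.79%) and 907 lower (4.88%), whereas with control arrays of the same number averaged, 33 were higher and 43 lower. Each pair of control arrays of one number enters the first of these as 2 samples and the second as 1. Such pairs correlated at 0.9934, 0.9705 and 0.9957 for R1881 and at 0.9927, 0.9939 and 0.9977 for DMSO. If they are repeat runs, every fit that counts them as 2, with the 262 genes above, overstates the number of separate control samples. The median change of all genes was -0.00318 on the log2 scale, and 49.0% were positive. Of all genes, 1741 (9.37%) had an unadjusted p under 0.05. The 3 Apigenin arrays all lay above the 6 R1881 arrays in 351 genes (1.89%) and all below them in 811 (4.37%).

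**Figure D1:**
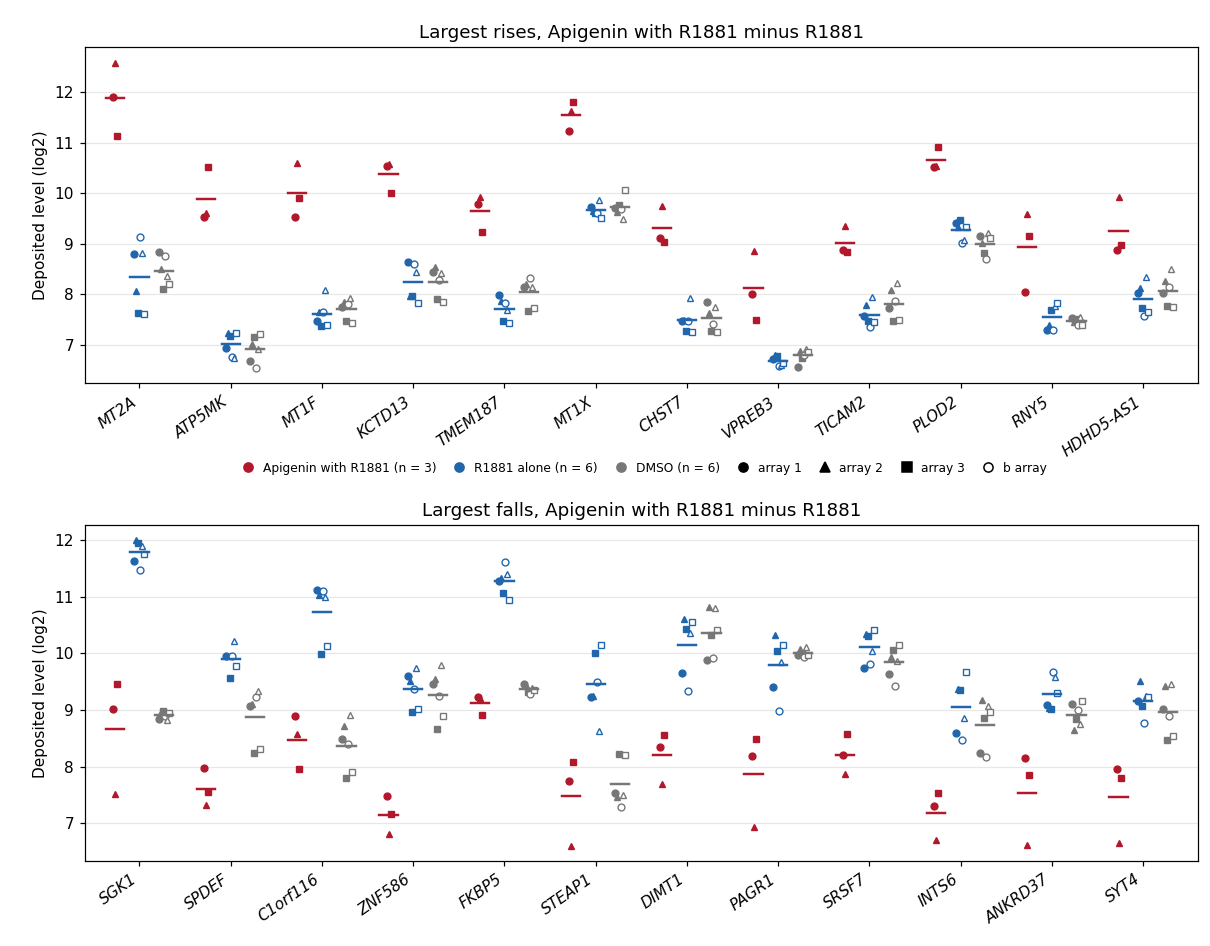
Deposited log2 level of the 12 genes with the largest rises (upper panel) and the 12 with the largest falls (lower panel) in each array of Apigenin with R1881 (red, n = 3), R1881 alone (blue, n = 6) and DMSO (grey, n = 6); bars are group means, the symbol gives the array number and open symbols are the b arrays. All 3 Apigenin arrays lie above all 6 R1881 arrays in the upper panel and below them in the lower panel, and in 10 of the 12 falls the triangle of Apigenin 2 is the lowest point.

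Metallothioneins, small cysteine-rich proteins that bind zinc and copper, gave the largest response. MT2A had 11.91, 12.59 and 11.14 in Apigenin 1, 2 and 3, against 8.79, 8.07, 7.63, 9.15, 8.82 and 7.61 in R1881 1, 2, 3, 1b, 2b and 3b. Every Apigenin array was above every R1881 array by a wide gap, although the R1881 arrays themselves spread. The change was 3.54 on the log2 scale (SE 0.37), or 11.6-fold (adjusted p = 6.48e-11), and 3.18 without Apigenin 2 (adjusted p = 2.50e-07). MT2A averaged 8.34 ± 0.66 with R1881 and 8.46 ± 0.29 with DMSO (SD, n = 6 each), and the rise from DMSO was 3.42 (adjusted p = 2.44e-10). No other of the 30 groups came near: the next highest mean was 9.15, in Mifepristone.

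A further 5 genes of the metallothionein and zinc list rose. MT1F had 9.53, 10.60 and 9.91 under Apigenin, against 7.47, 7.66, 7.37, 7.64, 8.09 and 7.39 with R1881, a change of 2.41 (SE 0.24, adjusted p = 8.61e-12). MT1X had 11.24, 11.64 and 11.81 under Apigenin, against 9.52 to 9.87 with R1881, a change of 1.90 (SE 0.35, adjusted p = 0.000276). In both genes the lowest Apigenin array was more than 1 unit above the highest R1881 array. MT1G, at 7.43, 8.86 and 7.64 under Apigenin against 6.55 to 6.78 with R1881, changed by 1.33 (limma, adjusted p = 4.47e-13), and its value was highest in Apigenin 2. Its SD was 0.773 under Apigenin and 0.0902 with R1881. With the block on the Apigenin and R1881 arrays alone, limma gave MT1G an adjusted p of 0.0157. MT1H, at 7.53, 7.47 and 7.56 under Apigenin against 6.45 to 6.71 with R1881, changed by 0.91 (SE 0.05, adjusted p = 4.11e-23), and the 3 Apigenin arrays were within 0.1 of each other. SLC30A1, which exports zinc through the plasma membrane, had 8.44, 8.17 and 9.33 under Apigenin, against 6.92 to 7.80 with R1881, a change of 1.22 (SE 0.22, adjusted p = 0.000288).

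The other measured metallothioneins did not pass. MT1E changed by 0.42 (adjusted p = 0.604), with Apigenin 2 at 7.72 and the other 2 Apigenin arrays at 7.11 and 7.01 against 6.60 to 7.06 with R1881. MT1L changed by 0.02 and MT4, a member known from squamous epithelium, by 0.005, and both were dim in every array. Over the whole list, 6 of 20 measured genes (30%, beside 0.468% of all genes) rose and 0 fell, and 6 rose without Apigenin 2 as well. At an unadjusted p under 0.05, limma also gave 6 higher and 0 lower. The list's median change was 0.04, beside -0.00318 for all genes, so the response was that of 5 metallothioneins and SLC30A1 and not of the list at large. The same 6 genes rose against the mean of the other 27 chemicals, and 6 of the list differed from Procymidone and 6 from Fenitrothion. Metallothionein genes are near-identical copies, so that a probe may read its neighbours, and a dimmer probe for MT1H changed by 0.06.

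**Figure D2:**
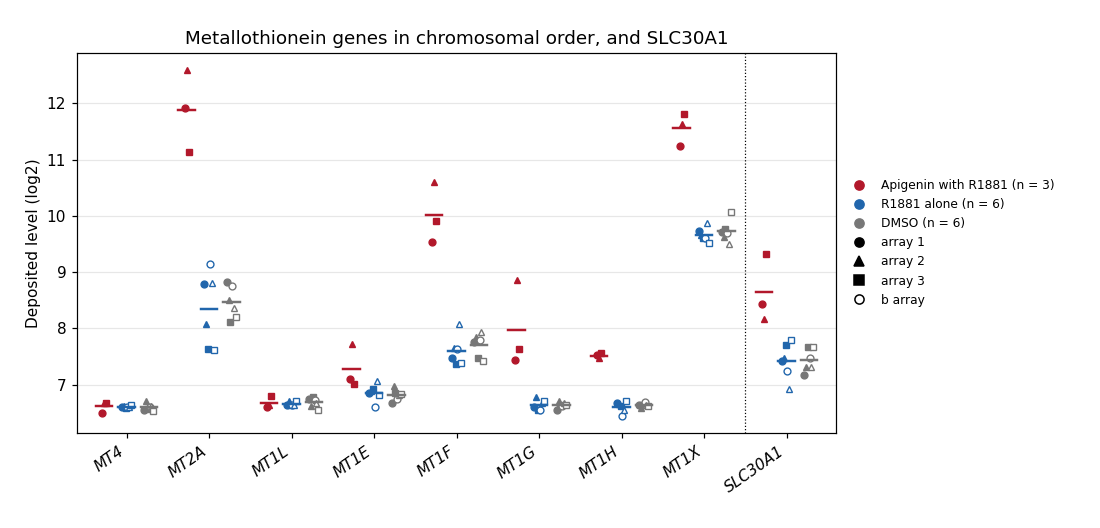
Deposited log2 level of the 8 measured metallothionein genes, in their order along chromosome 16, and of SLC30A1, in each array of Apigenin with R1881 (red), R1881 alone (blue) and DMSO (grey); bars are means, the symbol gives the array number and open symbols are the b arrays. MT2A, MT1F, MT1G, MT1H, MT1X and SLC30A1 have no overlap between Apigenin and R1881, while MT4 and MT1L lie at the level of dim probes in all groups.

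The metallothionein genes lie in a row on chromosome 16, in the order MT4, MT3, MT2A, MT1L, MT1E, MT1M, MT1A, MT1B, MT1F, MT1G, MT1H and MT1X (RefSeq, GRCh38.p14). Their promoters are known for metal response elements, the sites of the zinc-sensing factor MTF1. The 250 bases before the start of 3 members that rose and of MT4, which did not pass, are shown so that these sites can be seen. Capitals mark the core of the element, TGCACNC or TGCGCNC, on either strand, and overlapping cores run together. The RefSeq promoter table held 4 of the 8 measured metallothioneins. MT2A stands at chr16:56608334-56608583 (+), MT1X at chr16:56682220-56682469 (+), MT1H at chr16:56669564-56669813 (+) and MT4 at chr16:56564823-56565072 (+).
MT2A: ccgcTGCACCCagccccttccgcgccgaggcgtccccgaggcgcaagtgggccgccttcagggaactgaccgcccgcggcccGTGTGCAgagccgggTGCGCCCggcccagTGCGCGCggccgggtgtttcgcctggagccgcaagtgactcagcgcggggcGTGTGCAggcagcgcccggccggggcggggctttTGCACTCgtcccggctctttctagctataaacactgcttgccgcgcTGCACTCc
MT1X: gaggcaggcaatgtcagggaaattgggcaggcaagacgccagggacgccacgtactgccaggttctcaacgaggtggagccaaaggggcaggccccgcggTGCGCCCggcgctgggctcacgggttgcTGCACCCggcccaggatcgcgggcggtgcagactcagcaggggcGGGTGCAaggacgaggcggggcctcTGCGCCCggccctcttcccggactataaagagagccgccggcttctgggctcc
MT1H: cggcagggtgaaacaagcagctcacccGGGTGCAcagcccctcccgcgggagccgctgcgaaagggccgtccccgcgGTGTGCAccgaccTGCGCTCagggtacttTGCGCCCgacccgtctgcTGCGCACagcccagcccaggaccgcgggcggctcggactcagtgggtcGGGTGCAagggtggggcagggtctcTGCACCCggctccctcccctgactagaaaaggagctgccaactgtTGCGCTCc
MT4: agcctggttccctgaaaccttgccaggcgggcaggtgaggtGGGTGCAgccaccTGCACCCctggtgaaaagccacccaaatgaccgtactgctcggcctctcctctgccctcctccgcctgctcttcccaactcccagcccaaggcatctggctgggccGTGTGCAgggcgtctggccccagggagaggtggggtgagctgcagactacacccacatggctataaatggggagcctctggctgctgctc
MT2A held 7 cores, MT1X 4, MT1H 8 and MT4 3, whereas SLC30A1 (chr1:211579162-211579411, minus strand) held 1. Of 35116 RefSeq promoters of the same 250 bases, 24.8% held at least 1 core, 1.58% at least 3 and 0.37% at least 4. Of the 12 largest rises, 10 had a promoter in the table and 7 of these held a core, and of the 12 largest falls 2 of 12 did. A match to these letters is a description of the sequence and not of binding.

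Outside the metallothioneins, ATP5MK, a small subunit of the mitochondrial ATP synthase, rose most. It had 9.54, 9.62 and 10.53 in Apigenin 1, 2 and 3, against 6.94, 7.24, 7.18, 6.75, 6.75 and 7.24 in the R1881 arrays, a change of 2.88 (SE 0.26), or 7.35-fold (adjusted p = 4.47e-13). The R1881 values were those of a dim probe and the Apigenin values clearly above. It stood alone in its complex list. Of 53 measured genes of the respiratory chain and ATP synthase, 1 rose (1.89%, beside 0.468% of all genes) and 0 fell, with a median change of 0.06.

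KCTD13, an adaptor of a CUL3 ubiquitin ligase, had 10.54, 10.58 and 10.01 under Apigenin, against 7.83 to 8.65 with R1881, a change of 2.13 (SE 0.33, adjusted p = 6.35e-06). TMEM187, at 9.80, 9.94 and 9.23 against 7.42 to 7.99, changed by 1.94 (SE 0.27, adjusted p = 9.77e-07), and its other probe changed by 1.52. CHST7, a carbohydrate sulfotransferase, had 9.12, 9.76 and 9.04 against 7.26 to 7.93, a change of 1.82 (SE 0.27, adjusted p = 4.48e-06). All 3 genes passed without Apigenin 2 as well. PLOD2, which hydroxylates lysines of collagen, had 10.53, 10.55 and 10.93 under Apigenin, against 9.02 to 9.47 with R1881, a change of 1.39 (SE 0.19, adjusted p = 3.77e-07). TICAM2, an adaptor of toll-like receptor signalling, changed by 1.43 (adjusted p = 0.000319) and VPREB3, known from B-cell precursors, by 1.44 (adjusted p = 4.80e-14). In VPREB3 the Apigenin arrays were 8.01, 8.86 and 7.49, with Apigenin 2 the highest, against 6.59 to 6.80 with R1881. With the block on the Apigenin and R1881 arrays alone, limma gave VPREB3 an adjusted p of 0.0128.

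The last of the 12 largest rises were 2 non-coding RNAs and rested in part on Apigenin 2. RNY5, a Y RNA made by RNA polymerase III, had 8.05, 9.60 and 9.17 under Apigenin, against 7.29 to 7.84 with R1881, a change of 1.39 (adjusted p = 0.000235), or 1.06 without Apigenin 2 (adjusted p = 0.0691). HDHD5-AS1, an antisense transcript, had 8.88, 9.93 and 8.98 under Apigenin, against 7.58 to 8.34 with R1881, a change of 1.36 (adjusted p = 0.00877), or 1.02 without Apigenin 2 (adjusted p = 0.400). All 12 genes were also higher than in DMSO at adjusted p under 0.05. Among the smaller rises chosen after their values were seen, CCNT1, the cyclin partner of the elongation kinase CDK9, had 10.09, 10.10 and 10.03 under Apigenin, against 9.21 to 9.42 with R1881 (change 0.78, adjusted p = 0.0249, but 0.205 without Apigenin 2).

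Of the measured androgen-induced genes 14 of 39 fell, and SGK1 had the largest change. SGK1, a serine/threonine kinase gene that steroid receptors are known to switch on, had 9.02, 7.52 and 9.47 in Apigenin 1, 2 and 3, against 11.63, 12.004, 11.95, 11.47, 11.89 and 11.76 in the R1881 arrays. All Apigenin arrays were more than 2 units below all R1881 arrays, with Apigenin 2 the lowest, and DMSO stood at 8.91 ± 0.07 (SD, n = 6). The change was -3.11 (SE 0.43), a ratio of 0.115 (adjusted p = 5.01e-07), or -2.54 without Apigenin 2 (adjusted p = 0.000724), and other bright probes of the gene changed by -2.96 and -3.20. FKBP5, a co-chaperone of steroid receptors, had 9.23, 9.22 and 8.91 under Apigenin, against 11.28, 11.34, 11.06, 11.62, 11.41 and 10.95 with R1881, a change of -2.15 (SE 0.28, adjusted p = 1.04e-07). Here the 3 Apigenin arrays were close to each other and to DMSO (9.37 ± 0.07), and without Apigenin 2 the change was -2.20 (adjusted p = 4.81e-06). Each array holds the RNA of a whole culture, so fewer responding cells and less RNA per cell cannot be told apart.

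C1orf116, known as an androgen-regulated gene of the prostate, had 8.90, 8.57 and 7.96 under Apigenin, against 9.99 to 11.13 with R1881, a change of -2.25 (SE 0.42, adjusted p = 0.000407). Its other 2 probes, which were dimmer, changed by -0.22 and -0.65. STEAP1, a prostate cell-surface protein gene, had 7.75, 6.61 and 8.07 under Apigenin, against 9.23, 9.25, 10.01, 9.50, 8.64 and 10.15 with R1881, a change of -1.99 (SE 0.50, adjusted p = 0.0213). It lost its call without Apigenin 2 (-1.55, adjusted p = 0.517) and also when R1881 3 or R1881 3b was left out, and of its 3 other probes 2 dim ones had a small change of opposite sign. DIO2, which activates thyroid hormone, had 6.80, 6.70 and 6.81 under Apigenin, against 8.25 to 8.55 with R1881, a change of -1.60 (SE 0.23, adjusted p = 1.63e-06). UGT2B11, a glucuronosyltransferase, had 6.82, 7.45 and 6.86 under Apigenin, against 8.19 to 8.61 with R1881, a change of -1.44 (SE 0.13, adjusted p = 7.24e-13). In both genes the Apigenin arrays sat at or near the level of dim probes, as DMSO did, except for UGT2B11 in Apigenin 2 (7.45).

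Of 39 measured androgen-induced genes of a list of 44, 14 fell (35.9%, beside 0.942% of all genes) and 0 rose, 37 had a negative change, and the median change was -0.80. With the replicate number as a block 17 fell, or 25 on the Apigenin and R1881 arrays alone. Without Apigenin 2, 7 fell, with a median of -0.67, and with control arrays of the same number averaged 7 fell, or 8 with the block. At an unadjusted p under 0.05, limma gave 26 lower and 0 higher. The list was drawn up with earlier results of these arrays known, and DIO2, UGT2B11, S100P, NPPC and KCNK13 were in it for that reason, so its direction is not independent evidence; without these 5 genes, 9 of 34 fell and the median was -0.66. EAF2, a partner of elongation factors, changed by -1.64 (adjusted p = 0.00117), and the prostaglandin-degrading enzyme gene HPGD by -0.88 (adjusted p = 0.00877, but 0.210 without Apigenin 2).

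Several well-known androgen targets did not pass with all arrays in the fit. KLK2 had 7.48, 7.78 and 7.39 under Apigenin, against 7.89 to 8.69 with R1881, all below, but its change of -0.67 had an adjusted p of 0.332. KLK4, at 10.14, 10.57 and 10.32 against 10.69 to 11.24, likewise did not overlap, with a change of -0.69 (adjusted p = 0.273). With the block on the Apigenin and R1881 arrays alone, limma gave adjusted p = 0.00667 for KLK2 and 0.0445 for KLK4, and with averaged controls and the block 0.652 and 0.585, in the same order. NDRG1 had 9.40, 10.71 and 9.98 under Apigenin, against 10.88 to 11.87 with R1881, a change of -1.30 (adjusted p = 0.0640), and passed with the replicate number as a block (adjusted p = 0.0255), but not when the controls were averaged as well (adjusted p = 0.156). TMPRSS2 overlapped between the groups (-0.37, adjusted p = 0.888), and ZBTB16, at 10.10, 10.56 and 8.95 under Apigenin against 8.62 to 10.30 with R1881, changed by 0.31 (adjusted p = 1) and stood 1.56 above DMSO (8.31 ± 0.52; adjusted p = 0.138). KLK3 was dim throughout and changed by -0.02.

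R1881 itself raised 22 genes against DMSO (0.118%) and lowered 1 (0.00538%); 5 genes differed with averaged controls, 62 in a fit of these groups alone and 59 with cyclic loess. For these 22 genes the levels under Apigenin are given beside both controls as a description, because the comparisons share the R1881 arrays that chose the genes. All 22 had a negative change from R1881, between -3.11 and -0.58, and 18 of them were among the 175 genes that fell, which leaves 157 falls outside them. Against DMSO the same 22 genes changed by -0.50 to 0.56, and 0 passed, with a lowest adjusted p of 0.457. In the androgen-induced list, 0 of 39 genes differed between Apigenin and DMSO, where 1.1% of all genes did. This 0 and that of the 22 genes are thus near the share of all genes. At an unadjusted p under 0.05 by limma, 4 of the 39 differed. Their median change was 0.02, with a range from -1.01 for PLPP1, a lipid phosphatase gene, to 1.56 for ZBTB16. A p above the threshold does not show that the levels were equal; CLDN8, a claudin of tight junctions, had 6.82, 6.60 and 6.64 under Apigenin, against 7.19 ± 0.12 in DMSO (SD, n = 6) and 8.02 to 8.54 with R1881.

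**Figure D3:**
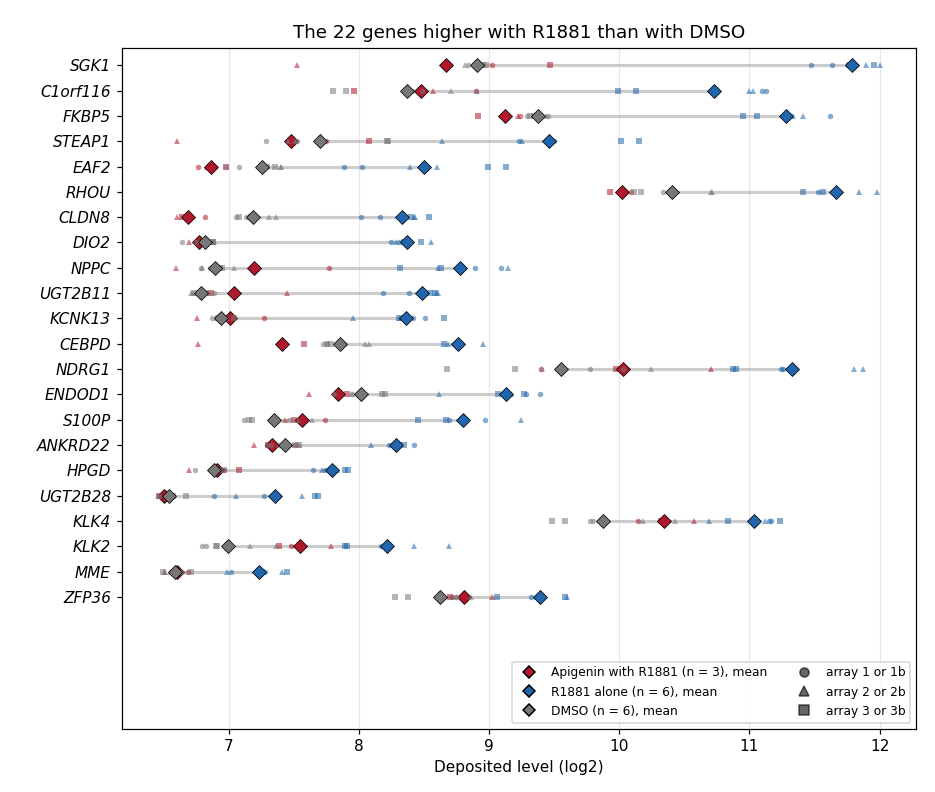
Deposited log2 level of the 22 genes that were higher with R1881 than with DMSO, ordered by their change under Apigenin; diamonds are the means of Apigenin with R1881 (red, n = 3), R1881 alone (blue, n = 6) and DMSO (grey, n = 6), small symbols are single arrays and the grey line joins the means of R1881 and DMSO. The red diamonds lie nearer to the grey than to the blue ones, closely so for SGK1, C1orf116, FKBP5, DIO2 and UGT2B11. For KLK2, KLK4 and NDRG1 they stand further above the grey, by 0.56, 0.47 and 0.47.

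Against DMSO, Apigenin with R1881 changed 204 genes (1.1%), 76 higher (0.409%) and 128 lower (0.689%), or 52 genes without Apigenin 2, and several of the largest falls were lower than in DMSO too. ZNF586, a zinc finger protein gene, had 7.48, 6.82 and 7.16 under Apigenin, against 9.60, 9.52, 8.97, 9.37, 9.74 and 9.02 with R1881, and 9.27 ± 0.42 in DMSO (SD, n = 6). The change was -2.22 from R1881 (SE 0.33, adjusted p = 3.13e-06) and -2.12 from DMSO (adjusted p = 1.06e-05). Another bright probe changed by -1.53 and a dim one by 0.25. SRSF7, a splicing factor, had 8.20, 7.87 and 8.57 under Apigenin, against 9.75 to 10.40 with R1881, a change of -1.90 (SE 0.32, adjusted p = 5.95e-05). INTS6, a subunit of the Integrator complex, had 7.31, 6.70 and 7.54 under Apigenin, against 8.47 to 9.68 with R1881, a change of -1.87 (adjusted p = 0.000236), although a dimmer probe changed by -0.15. Each of these 3 genes passed without Apigenin 2.

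DIMT1, which methylates ribosomal RNA, had 8.35, 7.70 and 8.55 under Apigenin, against 9.33 to 10.61 with R1881, a change of -1.95 (adjusted p = 0.00365). PAGR1, a partner of histone methyltransferase complexes, had 8.19, 6.93 and 8.49 under Apigenin, against 8.98 to 10.33 with R1881, a change of -1.92 (adjusted p = 0.00185). SYT4, a synaptotagmin, had 7.95, 6.66 and 7.79 under Apigenin, against 8.78 to 9.51 with R1881, a change of -1.70 (adjusted p = 0.00208). In these 3 genes the groups did not overlap, Apigenin 2 was the lowest array, and the call was lost without it (adjusted p = 0.133, 0.203 and 0.206, in the same order). All 3 were lower than in DMSO too, by limma at adjusted p = 0.00119 for DIMT1, 0.000414 for PAGR1 and 0.0107 for SYT4.

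SPDEF, an ETS-family transcription factor of luminal prostate cells, lay between these patterns. It had 7.97, 7.32 and 7.55 in Apigenin 1, 2 and 3, against 9.95, 9.96, 9.57, 9.96, 10.21 and 9.78 with R1881, and 8.88 ± 0.48 in DMSO (SD, n = 6). The change from R1881 was -2.29 (SE 0.37, adjusted p = 1.92e-05), and -2.15 without Apigenin 2 (adjusted p = 0.00180). The difference from DMSO was -1.27 and did not pass (adjusted p = 0.0677). Of 22 measured genes of the luminal transcription factor list, 2 fell, SPDEF and GRHL2 (9.09%, beside 0.942% of all genes). GRHL2, an epithelial transcription factor, had 8.51, 6.70 and 7.93 under Apigenin against 9.01 to 9.63 with R1881. Its change was -1.57 (limma, adjusted p = 0.0327, but 0.900 without Apigenin 2). FOXA1, a pioneer factor of the same lineage, changed by -0.13 (adjusted p = 1), with a median over the list of -0.15.

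Few genes of cell division passed, and those that did were lower. Of 36 measured mitotic genes 3 fell (8.33%, beside 0.942% of all genes) and 0 rose, 29 had a negative change, and the median was -0.26. At an unadjusted p under 0.05, limma gave 5 lower and 1 higher. Without Apigenin 2, 0 fell and the median was -0.17. CENPA, the histone of the centromere, had 8.14, 6.67 and 8.02 under Apigenin, against 8.84 to 9.16 with R1881 (-1.39, adjusted p = 0.00518), and the motor CENPE (-0.91, adjusted p = 0.0333) and the checkpoint protein gene BUB3 (-0.91, adjusted p = 0.0148) were the others. Of 34 DNA replication genes, 2 fell (5.88%, beside 0.942% of all genes) and 0 rose, with a median of -0.26. At an unadjusted p under 0.05, limma gave 9 lower and 0 higher, where 9.37% of all genes passed in either direction. POLE2, a subunit of DNA polymerase epsilon, had 8.13, 8.76 and 8.21 under Apigenin, against 9.05 to 9.29 with R1881, a change of -0.81 (adjusted p = 0.00194), and of -1.01 without Apigenin 2 (adjusted p = 0.000615). POLA2, of DNA polymerase alpha, changed by -1.53 (adjusted p = 0.00534, but 0.151 without Apigenin 2).

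Of 25 measured genes of the histone list, 2 rose and 1 fell (12%, beside 1.41% of all genes), or 3 and 0 without Apigenin 2. H2BC5 had 9.15, 9.52 and 9.79 under Apigenin, against 8.02 to 8.33 with R1881 (1.25, adjusted p = 0.0199, but 0.173 without Apigenin 2), and H3C2 had 7.28, 6.81 and 7.71 against 6.63 to 6.87 (0.53, adjusted p = 7.08e-06). The variant H2AZ1, among the brightest genes, had 12.53, 11.73 and 12.40 under Apigenin, against 13.16 to 13.33 with R1881, a change of -1.03 (adjusted p = 0.00877, but 0.386 without Apigenin 2).

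The stress and sensor lists gave few calls, where 0.468% of all genes rose and 0.942% fell. Of 16 aryl hydrocarbon receptor targets 0 passed, with 1 higher and 1 lower at an unadjusted p under 0.05 (limma). CYP1A1, its best-known target, had 8.54, 9.19 and 7.81 under Apigenin, against 7.24 to 7.84 with R1881, a change of 0.97 (adjusted p = 0.235) in which the lowest Apigenin array overlapped, while CYP1B1 changed by 0.04. Against the mean of the other 27 chemicals CYP1A1 was higher by 1.09 (adjusted p = 0.0376). Of 19 genes of protein folding in the endoplasmic reticulum 0 passed, 3 at an unadjusted p under 0.05, all higher; 15 were positive, and the median of 0.24 was the highest of the 28 lists. HSPA5, the main chaperone there, had 8.38, 8.85 and 8.35 under Apigenin, against 7.26 to 7.93 with R1881, without overlap (0.90, adjusted p = 0.0779). Of 24 heat shock genes 1 fell, DNAJA1, a co-chaperone of HSP70 (-0.81, adjusted p = 0.0281), and 0 rose, while HSPA1A changed by -0.05.

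Among 20 NRF2 targets 0 passed, 1 lower at an unadjusted p under 0.05, and HMOX1 and NQO1 changed by -0.05 and 0.20. Among 28 genes of the ATF4 response 0 passed, 2 lower at an unadjusted p under 0.05, and ASNS changed by 0.29 and DDIT3 by -0.50. Among 25 p53 targets 0 passed, 1 higher and 1 lower at an unadjusted p under 0.05, and CDKN1A changed by 0.25. Of 34 immediate early genes 1 rose, EGR1, at 7.44, 7.09 and 7.69 under Apigenin against 6.81 to 7.15 with R1881 (0.35, adjusted p = 0.0309). Of 33 hypoxia and glycolysis genes 1 fell, ANKRD37, at 8.15, 6.61 and 7.86 under Apigenin against 9.02 to 9.66 with R1881 (-1.75, adjusted p = 0.0140, but 0.532 without Apigenin 2). Of 17 WNT targets 1 fell, the transcription factor gene LEF1 (-1.55, adjusted p = 0.0249, with another probe at -2.04), and of 19 estrogen receptor targets 1, MYB (-0.93, adjusted p = 0.0485). Both lost their call without Apigenin 2 (adjusted p = 0.312 and 0.811). MYC changed by -0.02, and 0 of 20 genes of its network passed, 1 higher and 1 lower at an unadjusted p under 0.05. The single calls were 2.94% of the immediate early, 3.03% of the hypoxia, 5.88% of the WNT and 5.26% of the estrogen list. Of all genes, 0.468% rose and 0.942% fell.

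With the block on the Apigenin and R1881 arrays alone, several of these calls changed. In that fit 4 genes of endoplasmic reticulum folding rose, with HSPA5 at adjusted p = 0.00483, 4 of the ATF4 response rose and 2 fell, and CYP1A1 passed (adjusted p = 0.0137), while EGR1 (0.106), MYB (0.0559), CENPE (0.0581) and H3C2 (0.0517) no longer passed by limma's adjusted p. DNA replication genes gave 10 falls and 1 rise there. The share of all genes called in that fit was 2.79% upward and 4.88% downward.

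Steroid-converting enzymes gave 2 falls of 24 measured (8.33%, beside 0.942% of all genes), with a median of -0.05. They were UGT2B11 and UGT2B28, which both join glucuronic acid to steroids. UGT2B28 changed by -0.85 (limma, adjusted p = 0.00283). It was also the single fall of 14 measured genes (7.14%) of the androgen-repressed list, although R1881 had raised it against DMSO in these arrays. In 8 further lists 0 passed (limma): at an unadjusted p under 0.05 there were 2 higher and 3 lower of 38 ribosome biogenesis genes, 1 higher of 36 ribosomal proteins, 1 higher of 19 fatty acid synthesis genes, 3 lower of 21 NF-kB targets, 2 higher and 5 lower of 26 apoptosis regulators, 3 lower of 12 polyamine genes, and none of 19 cholesterol genes or of 20 genes of cell cycle entry.

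**Figure D4:**
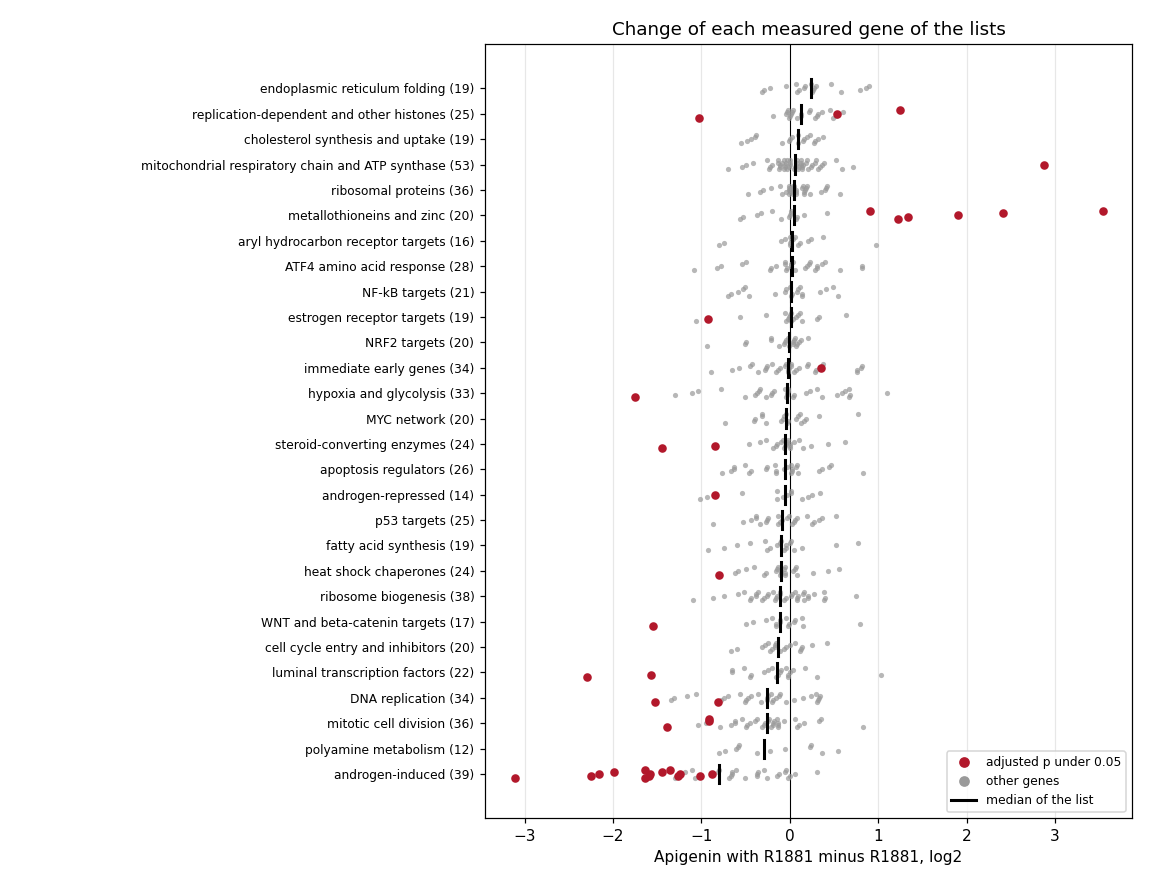
Change on the log2 scale, Apigenin with R1881 minus R1881, of each measured gene of the 28 lists (number measured in brackets); red points passed at adjusted p under 0.05, grey points did not, and the black bar is the list's median. The metallothionein and zinc list holds 6 red points to the right and the androgen-induced list 14 to the left, while most other lists are centred near 0 with 0 to 3 red points.

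Most of the falls were called with Apigenin 2 present and not without it. Of the 175 genes called lower with all arrays, 30 were also called without it, which are all 30 called in that setting, and of the 87 called higher 36 were. For the 49 genes called higher without Apigenin 2, that array lay on the same side in 37 and outside the R1881 range in 28, and for the 30 called lower, in 30 and 29. DPEP2, a dipeptidase, shows a rise made by it alone, with 6.62, 8.36 and 6.54 under Apigenin against 6.51 to 6.79 with R1881 (0.58, adjusted p = 0.0242, and -0.02 without it). SSTR3, a somatostatin receptor gene, did likewise, at 6.78, 8.33 and 6.67 against 6.57 to 6.83. Among falls called with it and not without it, it was furthest below the other 2 Apigenin arrays in SRSF8, MRPS31 and AHCTF1; MRPS31, a mitochondrial ribosomal protein gene, had 8.44, 6.75 and 8.30 under Apigenin against 8.87 to 9.29 with R1881.

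**Figure D5:**
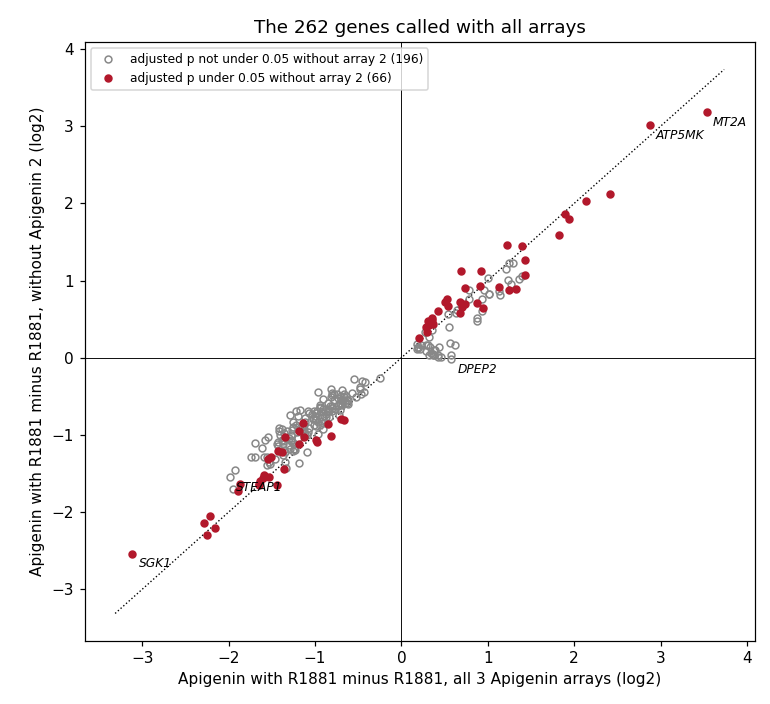
Change on the log2 scale, Apigenin with R1881 minus R1881, of the 262 genes called with all arrays: with the 3 Apigenin arrays on the horizontal axis and without Apigenin 2 on the vertical axis; the dotted line marks equal changes. The 66 red points kept an adjusted p under 0.05 without Apigenin 2 and the 196 open points did not, and most falls lie above the line, with a smaller change without that array.

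Set beside the 27 other chemicals, all given with R1881, Apigenin was the highest of the 30 groups for 11 of the 12 largest rises and the lowest for 4 of the 12 largest falls. These ranks depended in part on Spironolactone 2. Without that array the Spironolactone mean was above Apigenin for SPDEF (7.825 and 7.613), ZNF586 (7.168 and 7.15), DIMT1 (8.903 and 8.201) and SRSF7 (8.486 and 8.213). Apigenin was then the lowest group for these falls too, and the highest for PLOD2 (10.67, beside 10.66). Apigenin differed from the mean of the 27 in 174 genes upward (0.937%) and 208 downward (1.12%). All 12 rises and 11 of the 12 falls passed there, STEAP1 being the one that did not (adjusted p = 0.134). Against the fungicide Procymidone and the organophosphate Fenitrothion, which are known to block the androgen receptor, 79 (0.425%) and 56 genes (0.302%) differed. Without Apigenin 2, 101 genes differed from the mean of the 27, 33 were higher and 8 lower than under Procymidone, and 36 differed from Fenitrothion; the last 2 comparisons also shifted with each array of the chemical set against Apigenin. Of the 39 androgen-induced genes 0 differed from either, with 2 and 3 at an unadjusted p under 0.05. A count of 0 is near the shares of all genes, 0.425% and 0.302%. SGK1 averaged 8.67 ± 1.02 under Apigenin, beside 8.72 ± 0.18 under Procymidone and 8.69 ± 0.18 under Fenitrothion (SD, n = 3 each), and FKBP5 averaged 9.12 ± 0.18, beside 9.10 ± 0.07 and 9.30 ± 0.18. MT2A and ATP5MK were higher under Apigenin than under Procymidone by 3.23 and 2.92 and than under Fenitrothion by 3.33 and 2.93. ZNF586 changed by -2.23 against Procymidone and by -2.10 against Fenitrothion, and by limma all 6 of these differences passed, with adjusted p no higher than 0.000639. These calls use the spread over all arrays: in a fit of the 6 arrays compared, limma called 0 genes against Procymidone and 0 against Fenitrothion, with 1163 and 814 at an unadjusted p under 0.05.

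Spironolactone, a steroid drug that also blocks the androgen receptor, had the most extreme mean of the other groups for many of these genes. For C1orf116 it was not the nearest, at 8.248 beside 8.479 under Apigenin and 8.475 under Fenitrothion. Among the other 29 groups its mean was the lowest for 8 of the 12 largest falls, namely SPDEF, C1orf116, ZNF586, DIMT1, PAGR1, SRSF7, INTS6 and SYT4, and the highest for 4 of the 12 largest rises, namely ATP5MK, KCTD13, TMEM187 and PLOD2. Its array 2 stands apart even more than Apigenin 2; without it, its mean was the lowest for the same number of falls, 8, and the highest for 8 rises. ZNF586 had 7.16 and 7.17 in Spironolactone 1 and 3, and ATP5MK 9.53 and 9.25. Apigenin minus Spironolactone without that array was -0.02 for ZNF586 (SE 0.43, adjusted p = 0.992), 0.50 for ATP5MK (SE 0.23, adjusted p = 0.440) and 0.01 for PLOD2 (SE 0.24, adjusted p = 0.994). MT2A was higher under Apigenin by 3.65 (SE 0.48, adjusted p = 5.81e-07), with 8.10 and 8.37 in Spironolactone 1 and 3, and SGK1 was lower by 1.80 (SE 0.44, adjusted p = 0.0235). In all, 126 genes (0.678%) differed from Spironolactone without its array 2, against 1596 (8.59%) with it.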

How the data were processed

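RNA of LAPC4 cells was measured on Illumina Human HT-12 v4 arrays. Per the series' design text, the authors scanned the arrays on an iScan (3.3.28) and worked with GenomeStudio and Partek; the submitters' processing notes also name limma. What they deposited are log2 levels, as judged from their range of 6.32 to 14.15; their scale of normalization and the background correction are not given in the sources used here. Array medians were all 6.721, so the values were used as deposited, and detection p-values were not used here.

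Of 48107 probes, 30113 had 1 gene symbol in the platform annotation, 8 had several and 17986 were unnamed. Probes above their own array's median in at least 3 arrays were kept (43820), and a gene was read by its brightest kept probe (18571 genes). Missing values (191, in 19 tested genes) were left out array by array. Group means were fitted to all 96 arrays with limma 3.58.1 (R 4.3.3, lmFit, contrasts.fit, eBayes), with Benjamini-Hochberg adjustment over all genes and a threshold of 0.05. The steps were tested on simulated data with independent noise and 1 spread per gene. Those data held no outlying array, no pairing by number and no repeated controls, so the effect of these was not tested there. Figures were drawn with matplotlib and promoters were read from RefSeq (GRCh38.p14). For arrays, their number limits the precision.

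Deviations from the group means correlated at 0.519, 0.598 and 0.883 between Apigenin and R1881 arrays of the same number. For unlike numbers the values ran from -0.735 to 0.356. Deviations within a group cancel out, so negative values for unlike numbers are partly forced. The arrays are taken as paired by number from the labels' numbers and this check, and the main fit leaves the pairing out. The replicate block over all arrays is given where it changes a result. That on the 9 arrays alone is given for the counts and the calls named.

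The members, lists and tests were chosen with earlier results of these data known. Genes named are the 12 largest rises and 12 largest falls with no overlap between the groups, up to 4 called genes of each of 28 lists with uncalled members as examples, every measured metallothionein, the 5 genes that most rest on Apigenin 2, and the 5 largest each way against the 27 other chemicals. SLC30A1, EAF2, CLDN8, DIO2, HPGD and CCNT1 are named beyond that and were chosen after their values were seen. Alternatives were each array left out, the replicate block, averaged controls, smaller fits, cyclic loess, no filter, the mean of a gene's probes, trend with robust estimation, and array weights.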

Additional observations from a re-analysis of the deposited data

Results flagged for a closer look

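In 3 of 150 sets of 6 control arrays examined for the named genes (2.0%; chance flags about 1 in 20), 1 array lay far from the other 5. CHST7 was 7.93 in R1881 2b and 7.26 to 7.50 in the other R1881 arrays, DPEP2 was 6.79 in R1881 3 and 6.51 to 6.57 in the others, and HPGD was 6.74 in DMSO 1 and 6.88 to 6.96 in the others.

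Probes with no gene in the annotation used here were outside the comparisons above. Of 16730 kept, 51 were higher and 15 lower under Apigenin with R1881 than with R1881 by limma at adjusted p under 0.05, and 28 and 14 of these had no overlap between the arrays. The largest fall, ILMN_3211935, had 8.52, 7.56 and 9.80 under Apigenin, against 10.40 to 11.89 with R1881 (limma, adjusted p = 0.0388). The largest rise, ILMN_1691156, had 11.45, 12.39 and 11.10 under Apigenin, against 8.44 to 9.70 with R1881 (limma, adjusted p = 6.26e-08). Of the 18571 genes above, 87 were higher and 175 lower, adjusted over genes and not over probes.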

How the results depend on the processing

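The count of genes depended strongly on the setting. Of 52 named genes called with all arrays, all 52 kept their call with the replicate block, 28 kept it without Apigenin 2, 30 with control arrays of the same number averaged, 35 with these and the block, 35 in the fit of only the groups compared and 44 with the block on the Apigenin and R1881 arrays alone, and the only change of sign in any setting was DPEP2 (-0.0153 without Apigenin 2, and up to 0.8968 without Apigenin 3). Leaving out 1 array at a time gave 49 (without Apigenin 2) to 152 (without Apigenin 3) genes higher and 30 (without Apigenin 2) to 186 (without Apigenin 3) lower against R1881; without R1881 2, 110 were lower. It gave 52 (without Apigenin 2) to 269 genes against DMSO, 19 to 23 for R1881 against DMSO, and 101 (without Apigenin 2) to 444 against the other 27 chemicals. Against Procymidone it gave 20 (without Procymidone 3) to 69 (without Apigenin 3) higher and 8 (without Apigenin 2) to 52 lower; leaving out Apigenin 1 or any Procymidone array also moved at least 1 of the 2 counts by over 1.5 times. Against Fenitrothion it gave 31 (without Fenitrothion 1) to 93 (without Apigenin 1) and each of the 6 arrays moved the count by over 1.5 times, and against Spironolactone 126 (without Spironolactone 2) to 3130 (without Spironolactone 3), where each array but Apigenin 3 did. With the replicate block, 278 genes were lower against R1881 and 332 differed from DMSO, and it changed no other count by over 1.5 times; among the named genes NDRG1 gained a call, which it lost with averaged controls.

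Chosen after seeing the data, the block on the 9 Apigenin and R1881 arrays alone gave 519 higher and 907 lower, and the block without Apigenin 2 gave 53 and 42. Averaging control arrays of the same number gave 33 higher and 43 lower (DMSO 52, R1881 against DMSO 5), and, also chosen after seeing the data, 40 and 74 with the block (DMSO 85, R1881 against DMSO 5). Fitting only the groups compared gave 56 higher and 204 lower, 62 for R1881 against DMSO, and 0 for Procymidone, Fenitrothion and Spironolactone (limma; 1163, 814 and 795 genes at an unadjusted p under 0.05). Cyclic loess between arrays gave 260 and 377 of 16739 genes (DMSO 521, R1881 against DMSO 59, Procymidone 113 and 181, Fenitrothion 241, the other 27 chemicals 912), a share of rises of 40.8% against 33.2%. Array weights, whose estimation stopped before it converged and gave Apigenin 2 a weight of 0.179, gave 827 and 1154 (DMSO 1525, R1881 against DMSO 166, Procymidone 435 and 935, Fenitrothion 846, Spironolactone 4480, the other 27 chemicals 2248). The filter, the mean of probes and trend with robust estimation moved no count by over 1.5 times. The causes of these differences were not tested. With 3 Apigenin arrays, 1 of them apart, changes near the threshold are not settled, and dim probes have no known distance from background.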

Other observations

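The genes that moved differed in length and level. The 87 genes called higher had a median span of 13.5 kb in the RefSeq annotation and a median R1881 level of 6.82, the 175 called lower a span of 41.2 kb and a level of 8.53, and the genes not called a span of 22.9 kb and a level of 7.001. These are descriptions without a test, and since a dim gene has little room to fall, level and direction cannot be told apart here.

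Apigenin and Spironolactone, which had near levels for several of the genes above, differed in MYC, FOXA1 and KLF6, 3 transcription factor genes chosen after their values were seen. MYC averaged 10.87 under Apigenin, against 8.14, 6.73 and 7.96 in Spironolactone 1, 2 and 3. FOXA1 averaged 12.15 against 10.38, 6.66 and 10.32, and KLF6 averaged 11.01 against 9.11, 6.72 and 9.09. Without Spironolactone 2, which stands apart, limma gave differences of 2.82 for MYC (SE 0.58, adjusted p = 0.00338), 1.80 for FOXA1 (SE 0.44, adjusted p = 0.0232) and 1.90 for KLF6 (SE 0.41, adjusted p = 0.00665).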
